A study of Mus musculus with 18 samples.

Results

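The question addressed here is how loss of Ppp6r3 in hepatocytes changes the liver transcriptome of mice kept on a high-fat diet. Ppp6r3 encodes SAPS3, a regulatory subunit of protein phosphatase 6 (PP6). RNA sequencing was carried out on 18 livers of male mice, and the 10 livers on high-fat diet (HFD) were compared, 5 FF HFD mice against 5 LKO HFD mice. All mice, the controls included, carry floxed copies of Ppp6r3 (fl/fl, called FF), and in LKO mice a Cre recombinase transgene is added, taken from a C57BL/6 line and driven by the albumin (Alb) promoter. Mice were 8 weeks old when the diets began and stayed on them for 16 weeks. HFD provided 32.5% of calories as fat, and the control diet (CD), given to 4 FF CD and 4 LKO CD mice, provided 10%. Expression is given as RPKM, a read number divided by gene length (in kb) and by the mapped reads of the library (in M, mega). Of 25266 listed genes, 11090 had a mean of 0.5 RPKM or more across the 18 mice and were analysed. A gene is said to be called, to have risen or to have fallen when its level in LKO HFD mice differed from that in FF HFD mice by more than 1.5-fold and the limma test gave, after Benjamini-Hochberg correction, an adjusted p below 0.05. Fold changes are on the log2(RPKM + 1) scale, which understates the change of genes of low level, and a positive value means higher in LKO mice.

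PP6 is a serine/threonine phosphatase whose catalytic subunit works with a SAPS regulatory subunit and an ankyrin repeat subunit. AMPK, the kinase that senses low cellular energy, is switched on by phosphorylation and off by phosphatases. In the liver, overnutrition is known for lipid droplet storage, altered glucose and lipid synthesis and, with time, inflammation and matrix deposition. The liver also differs between the sexes in mice, because pulsatile growth hormone acts through STAT5 to keep a male pattern of enzymes, transporters and secreted proteins. The albumin promoter is active in hepatocytes, and which other liver cells keep their copies of the gene was not tested. In whole tissue, fewer cells of a type and less RNA per cell cannot be told apart.

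The depth of the libraries, recovered from the steps between low values, was 23.3 M to 37.0 M reads per mouse, with medians of 26.3 M in FF HFD and 25 M in LKO HFD mice. At the median depth, 3 reads on a gene of 2 kb correspond to an RPKM of 0.0584. Pearson's r across genes was 0.974 to 0.992 over the 20 pairs of HFD mice of the same genotype and 0.965 to 0.990 over the 25 pairs of different genotype. In all 18 mice Xist was at most at 0.0562 and the Y-linked Ddx3y at least at 7.0, as in male animals. The first principal component of the 10 HFD mice held 34.7% of the variation. FF HFD mouse 1, at -2.76, and LKO HFD mouse 1, at 2.89, lay next to each other on it, while the other FF mice lay between -22.1 and -11.2 and the other LKO mice between 9.44 and 21.9. FF HFD mouse 1 was the FF mouse nearest to the LKO mean in 48.3% of the called genes, and LKO HFD mouse 1 the LKO mouse nearest to the FF mean in 50%. In a fit without these mice, chosen after the data were seen, the count of called genes was 342 instead of 230.

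The targeted gene Ppp6r3, on chromosome 19 from 3454928 to 3576033 (GRCm38), was lower in LKO mice. Its RPKM was 8.82, 7.55, 8.11, 8.47 and 8.22 in FF HFD mice 1 to 5 and 4.22, 4.42, 4.87, 4.71 and 4.77 in LKO HFD mice 1 to 5. The highest LKO mouse lay under the lowest FF mouse (exact permutation test, two-sided, p = 0.00794, the smallest that 5 against 5 mice allow), with a log2 fold change of -0.72 (SE 0.0685, adjusted p = 7.14e-06). The means were 8.23 ± 0.467 (SD, n = 5) for FF and 4.599 ± 0.271 (SD, n = 5) for LKO. Of the 7 tested genes of PP6 subunits this was the only one called. Among the 12 tested genes of AMPK subunits and its upstream kinases, Camkk2, a calcium-dependent kinase that phosphorylates AMPK, was called. Camkk2 was at 1.705, 1.34, 0.803, 1.28 and 1.27 in FF mice and at 1.89, 2.34, 3.81, 2.92 and 2.58 in LKO mice, without overlap, a log2 fold change of 0.69 (SE 0.12, adjusted p = 0.00241). Within 5 Mb of Ppp6r3, 4 of 128 other tested genes were called, against 230 of 11090 over all tested genes (2.07%). These were Rasgrp2 and the neighbours Slc22a27, Slc22a28 and Slc22a29, and 0 of them were called on CD.

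Between LKO and FF mice on HFD, 230 of 11090 genes were called (2.07%), 100 higher (0.902%) and 130 lower (1.17%). The 5 and 5 values did not overlap in 146 of the 230 called genes, 59 higher and 87 lower, and in 518 of all 11090 tested genes (4.67%). The larger share among called genes follows from the calls, which rest on the same mice. The difference exceeded 1 on the log2 scale in 37 higher and 50 lower genes and exceeded 2 in 5 and 4 genes. Genes that rose were of higher level than those that fell, with a median mean RPKM of 22.2 against 5.79, where the median of all tested genes was 4.70. Among the 509 genes at a mean of 100 RPKM or more, 24 rose and 10 fell, whereas among the 1360 genes under 1 RPKM 4 rose and 15 fell. The plot of fold change against level shows both groups over the whole range. With the sum of RPKM made equal in all mice beforehand, 83 genes rose and 167 fell. Single mice moved the count. It was 132 when FF HFD mouse 2 was left out, 144 for LKO HFD mouse 3 and 318 for LKO HFD mouse 1.

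**Figure D1:**
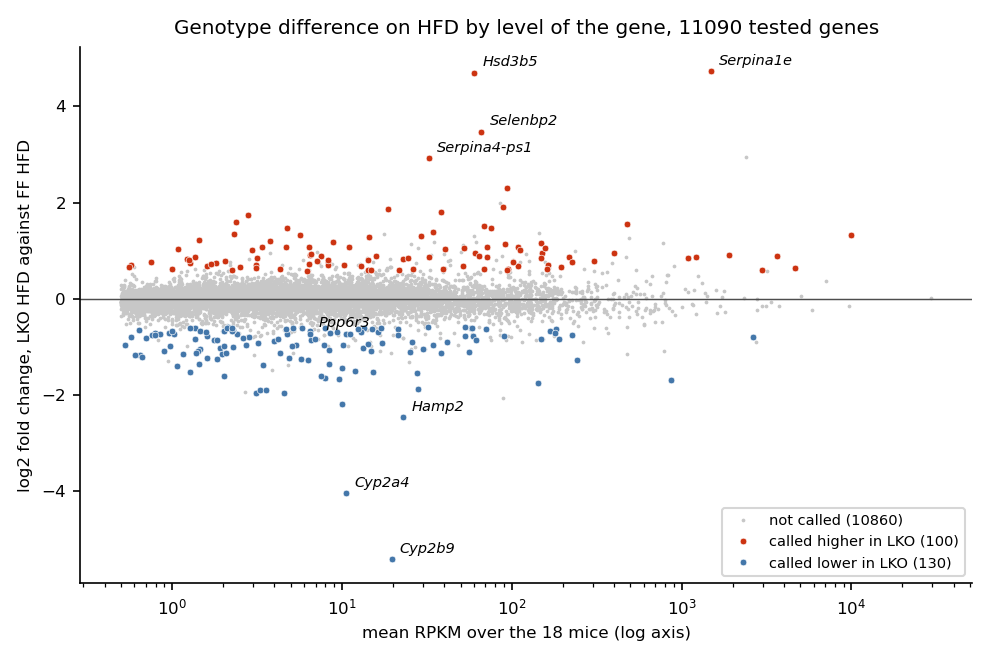
Log2 fold change of LKO HFD against FF HFD mice (vertical axis) by mean RPKM over the 18 mice (log axis), 1 point per tested gene, with the 100 genes called higher in red, the 130 called lower in blue and the others in grey. Hsd3b5 and Serpina1e stand highest, at 4.71 and 4.73, and Cyp2b9 lowest, at -5.41.

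Genes known to differ between male and female mouse liver were among those with the largest changes. Of 28 tested male-biased genes, genes known for a higher level in males, 14 rose and 0 fell, and all 28 had a positive fold change (median 1.25, against 0.0299 over all tested genes). Over all tested genes 57.4% of fold changes were positive and 42.6% negative, and the sign counts given for lists are to be read against these shares. All lists were written with earlier results of these data known, so their counts and signs are a description and no independent support. Of 35 listed female-biased genes 19 passed the filter on level, of which 6 fell and 0 rose, and all 19 had a negative fold change (median -0.855). Cyp2b9 and Hao2 passed the filter only through their level in FF HFD mice, so that the filter favoured their direction, and of the 17 that also passed it in the other 13 mice 4 fell. With each mouse left out in turn, 11 to 16 male-biased genes rose and 6 to 9 female-biased genes fell. All animals being male, these are levels within 1 sex. Many of these genes belong to families with near-identical members, among which the reads cannot be told apart with certainty.

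Serpina1e, an alpha-1-antitrypsin, had an RPKM of 190.3, 17.5, 52.1, 77.4 and 57.7 in FF mice and of 1301, 1656, 1573, 1867 and 1789 in LKO mice (log2 fold change 4.73, SE 0.44, adjusted p = 5.57e-06). The lowest LKO mouse was several times above the highest FF mouse, and FF mouse 1 was the highest FF mouse. Hsd3b5, a steroid reductase of the male liver, was at 3.94, 0.0478, 0.0711, 2.26 and 2.24 in FF mice and at 73.5, 44.3, 61.1, 63.96 and 51.04 in LKO mice (log2 fold change 4.71, SE 0.38, adjusted p = 9e-07). FF mice 2 and 3 were near the level of a few reads, and no LKO mouse came near any FF mouse. Selenbp2, a selenium-binding protein, was at 7.28, 3.98, 5.77, 8.27 and 6.53 in FF mice and at 65.9, 65.04, 90.2, 38.3 and 208 in LKO mice (log2 fold change 3.48, SE 0.38, adjusted p = 4.03e-05). Here the LKO mice spread widely, with LKO mouse 5 far above the rest, while the FF mice lay close together. On CD the means of these 3 genes in FF mice were 3777, 133 and 149, above those of both HFD groups except for Selenbp2 in LKO mouse 5, and the means in LKO CD mice were 746, 63.1 and 23.5.

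**Figure D2:**
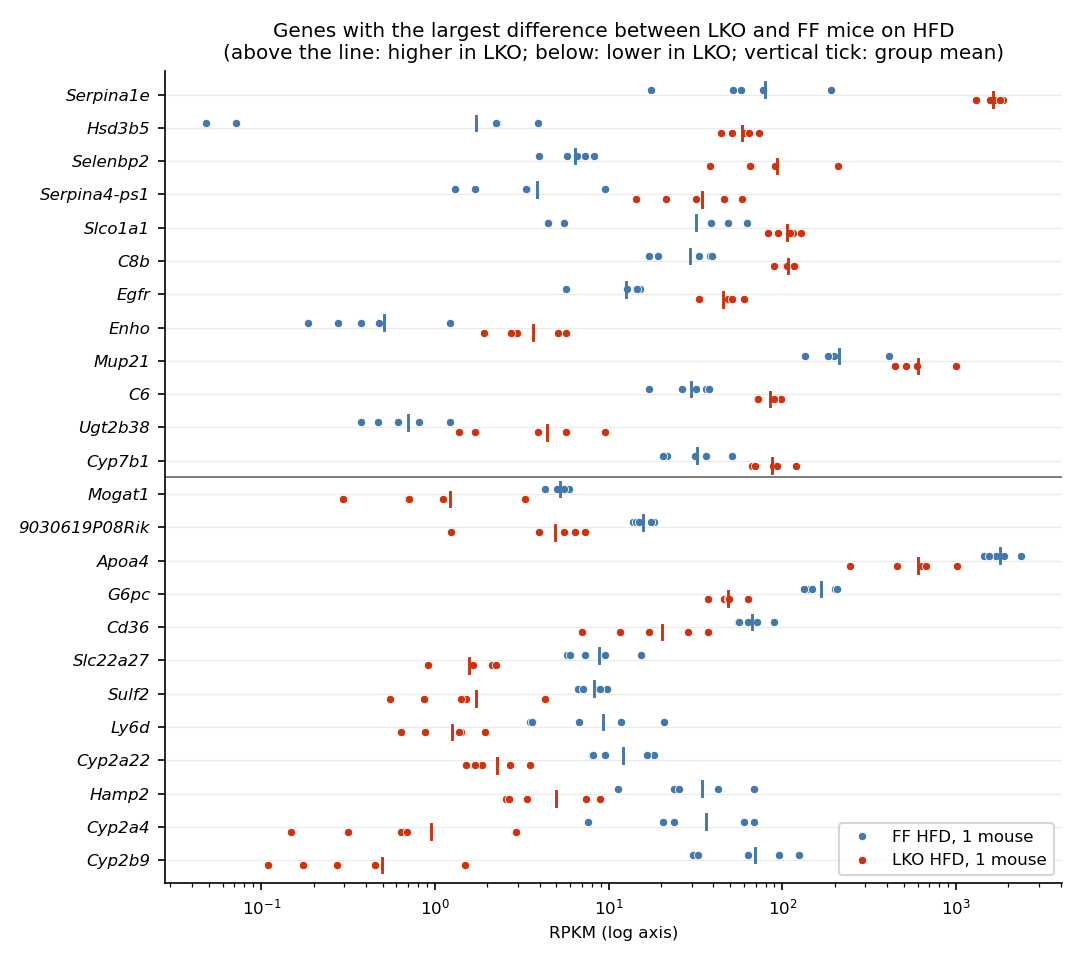
RPKM on a log axis of the 12 called genes with the largest increase (above the line) and the 12 with the largest decrease (below) among those whose FF HFD mice (blue, n = 5) and LKO HFD mice (red, n = 5) do not overlap, where each point is 1 mouse and each vertical tick a group mean. Cyp2b9 has 30.4 to 125 RPKM in FF mice and 0.109 to 1.48 in LKO mice, and Serpina1e the reverse order, 17.5 to 190.3 and 1301 to 1867.

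The other genes of the male pattern that rose encode transporters, complement proteins, a receptor and secreted carriers. Slco1a1, an uptake transporter for bile acids and steroid conjugates, was at 48.4, 4.47, 5.52, 62.2 and 38.9 in FF mice and at 115, 93.9, 128, 111 and 83.1 in LKO mice (log2 fold change 2.31, adjusted p = 0.0181). FF mice 2 and 3 were again far below the other FF mice, and the call was lost without LKO mouse 3 (adjusted p = 0.0515), in the fit of only the HFD mice (0.0833) and without moderation of the variance (0.0521). Egfr, the receptor of epidermal growth factor, was at 14.4, 5.699, 12.7, 15.1 and 14.6 in FF mice and at 33.7, 32.9, 48.3, 51.5 and 60.3 in LKO mice (log2 fold change 1.81, SE 0.24, adjusted p = 0.000226), without overlap. Cyp7b1, an oxysterol hydroxylase of the alternative bile acid route, rose by 1.47 (adjusted p = 0.000843) from 50.9, 21.5, 20.4, 36.1 and 31.2 to 66.9, 69.2, 120.2, 87.98 and 93.1. The groups did not overlap, and FF mouse 1 was the FF mouse nearest to the LKO mice. The major urinary proteins, small carriers of pheromones that the male liver secretes, had 22 tested members, of which Mup21 (1.56, adjusted p = 0.00793) and Mup20 (1.32, adjusted p = 0.00836) rose and 0 fell. Without FF mouse 1 there were 4, and Mup20 was not called with no filter on low values (0.0623). Mup20 was among the most abundant transcripts of the liver, at 12076 ± 5127 (SD, n = 5) in LKO and 4747 ± 1693 (SD, n = 5) in FF mice. Cyp4a12b (1.87, adjusted p = 0.0349), an arachidonic acid omega-hydroxylase, and Ugt2b38 (1.48, adjusted p = 0.0181), a glucuronosyltransferase, rose as well. Cyp4a12b overlapped between the groups and lost its call without any of FF mice 2 to 4 or LKO mice 1, 2, 4 and 5 (adjusted p up to 0.0941), and Ugt2b38 without FF mouse 2 or LKO mouse 3 (up to 0.0604).

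Of the female-biased genes, the steroid hydroxylase Cyp2b9 had the largest decrease of all genes tested. It was at 30.4, 125, 95.6, 63.1 and 32.7 in FF mice and at 0.4504, 1.48, 0.173, 0.273 and 0.109 in LKO mice (log2 fold change -5.41, SE 0.403, adjusted p = 6.96e-07). Every LKO mouse was more than 1 order of magnitude below every FF mouse. In FF CD mice the mean was 0.0163, under the level of 3 reads on a gene of 2 kb. In LKO CD mice it was 0.91, with the highest mouse at 3.42. Cyp2a4, a testosterone hydroxylase, fell from 7.59, 59.7, 68.98, 20.6 and 23.6 to 0.314, 2.92, 0.639, 0.693 and 0.149 (log2 fold change -4.04, SE 0.44, adjusted p = 3.92e-05). LKO mouse 2 was the highest LKO mouse in both genes, and FF mice 2 and 3 the highest FF mice. Hamp2, a paralog of the iron hormone hepcidin, was at 11.3, 68.3, 23.7, 42.7 and 25.2 in FF mice and at 8.92, 7.38, 2.56, 3.38 and 2.66 in LKO mice (log2 fold change -2.46, adjusted p = 0.00402). The FF mouse nearest to the LKO mice was FF mouse 1. Hamp itself had a log2 fold change of 1.16 and did not pass the test (adjusted p = 0.0525), and 1 of 25 tested genes of iron handling, Hamp2, was called. Slc22a27 (-1.88, adjusted p = 0.000182) and Slc22a29 (-1.14, adjusted p = 0.00203), organic anion transporters near Ppp6r3 on chromosome 19, fell, whereas their neighbour Slc22a28 rose (1.08, adjusted p = 0.0367). The call of Slc22a28 was lost without FF mouse 2 or 3 or LKO mouse 2 or 3 (adjusted p up to 0.107).

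Of 19 tested genes of growth hormone and STAT5 signalling, 2 rose and 1 fell. Socs2, a feedback inhibitor induced by STAT5, was at 2.65, 2.205, 2.64, 1.58 and 3.76 in FF mice and at 7.69, 4.96, 8.87, 6.04 and 13.4 in LKO mice (log2 fold change 1.33, adjusted p = 0.0314). The groups did not overlap, but the call was lost without FF mice 2, 3 or 4 or LKO mice 3 or 5 (adjusted p up to 0.0812). Lifr, the receptor of leukaemia inhibitory factor, was at 11.2, 8.52, 7.56, 9.96 and 9.02 in FF mice and at 17.9, 14.97, 21.8, 17.3 and 18.4 in LKO mice (log2 fold change 0.898, SE 0.14, adjusted p = 0.00117), with every LKO mouse above every FF mouse. Igfbp1, a binding protein of insulin-like growth factors, had a log2 fold change of -1.02 (adjusted p = 0.04604), with overlap and with the call lost in 15 of the 18 fits that leave out 1 mouse (adjusted p up to 0.118). Among 37 tested P450 genes of families 1 to 3, 3 rose and 7 fell. Cyp2c70, which makes muricholic acids, rose (0.94, adjusted p = 0.0109), and Cyp2a22 (-1.96, adjusted p = 1.48e-05) and the coumarin hydroxylase Cyp2a5 (-1.28, adjusted p = 0.0214) fell. Cyp2a5 lost its call without FF mouse 2 or 3 or LKO mouse 3 or 4 (up to 0.0694). The count of 3 P450 genes that rose was 1 without LKO mouse 3 or 4 and 5 without FF mouse 1, and that of 2 growth hormone genes was 1 without any of FF mice 2 to 4 or LKO mouse 3. Of 13 tested hydroxysteroid dehydrogenases 2 rose, Hsd3b5 and the estradiol-oxidising Hsd17b2 (0.68, adjusted p = 0.00151).

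**Figure D3:**
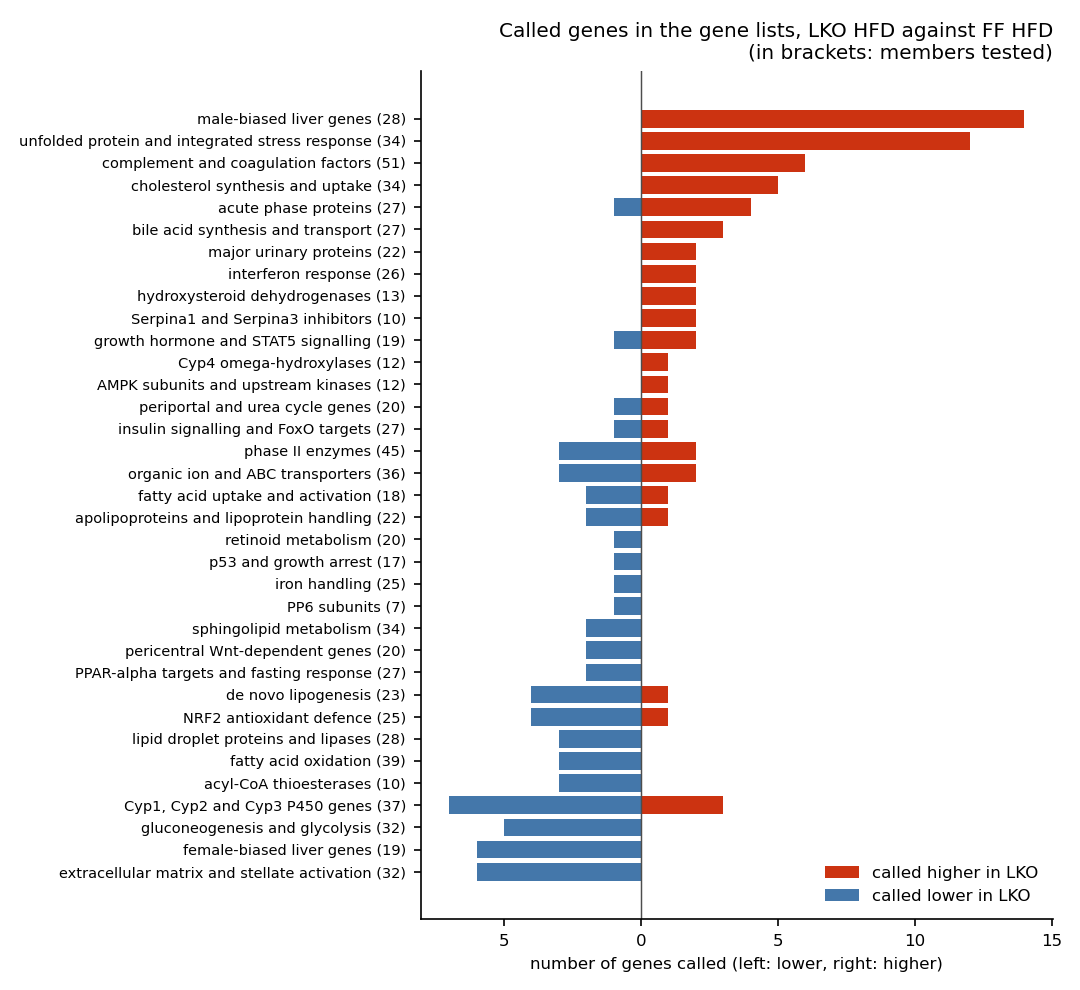
Number of genes called higher (red, right) and lower (blue, left) in LKO HFD against FF HFD mice for the 35 of 45 gene lists with at least 1 called member, with the number of tested members in brackets. The male-biased list has 14 called higher and the list of ER chaperones and stress factors 12, both with 0 lower, while the matrix and female-biased lists have 6 lower and 0 higher each.

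Some genes of protein folding in the endoplasmic reticulum (ER) rose in LKO mice. Secretory proteins are folded in the ER by chaperones and disulfide isomerases, whose genes are induced through XBP1, ATF6 and ATF4 when the folding load grows. Of 34 tested genes of this response 12 rose and 0 fell, with a median fold change of 0.536 and 32 positive values. Derl3, which helps to remove misfolded proteins from the ER, was at 2.42, 0.7996, 0.737, 1.07 and 0.442 in FF mice and at 1.71, 2.39, 15.8, 5.76 and 12.2 in LKO mice (log2 fold change 1.75, SE 0.38, adjusted p = 0.0157). LKO mice 3 and 5 were far above the others, and LKO mice 1 and 2 were below FF mouse 1. Sdf2l1, a partner of ER chaperones, was at 15.1, 7.27, 6.5001, 10.3 and 7.37 in FF mice and at 16.6, 18.7, 34.9, 16.2 and 35.8 in LKO mice (log2 fold change 1.28, adjusted p = 0.00911), without overlap but with LKO mice 3 and 5 highest again. Xbp1, a transcription factor of the response, was at 70.9, 43.1, 38.3, 40.3 and 46.5 in FF mice and at 77.7, 82.5, 122, 106 and 119 in LKO mice (log2 fold change 1.08, SE 0.15, adjusted p = 0.000547). All 5 LKO mice were above the highest FF mouse, which was FF mouse 1. Asns, asparagine synthetase and a target of ATF4, had a log2 fold change of 1.22 (adjusted p = 0.0456) at a low level, 2.37 ± 1.95 (SD, n = 5) in LKO mice, and lost its call in 13 of the 18 fits without 1 mouse (up to 0.128).

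The size of this group changed with single mice and with the fit. The count of 12 fell to 3 without LKO mouse 3, to 4 without LKO mouse 5 and to 4 to 6 without any of FF mice 2 to 5, and rose to 16 without mouse 1 of both groups. In a fit of only the 10 HFD mice it was 3. Xbp1, Derl3 and Sdf2l1 kept their calls without each single mouse (adjusted p at most 0.00281, 0.0447 and 0.0350), and Derl3 missed the test in the fit of only the HFD mice (0.0737).

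Promoters of some of these genes hold the ER stress response element (ERSE), CCAAT and CCACG separated by any 9 bases, which ATF6 and XBP1 are known to bind. It was searched on both strands in the 250 bases before the start of each gene in RefSeq (GRCm38.p6), where 176 of the 230 called genes had an entry. It was found in 35 of 27025 promoters (0.130%) and in 15 of the 8864 tested ones (0.169%). Of 77 genes that rose 4 held it, and of 99 genes that fell 0 did. All 4 belong to the ER list, where it was found in 4 of 11 members that rose and in 5 of 19 that were not called (36.4% and 26.3%). These 4 windows are shown because they hold the element in genes that rose. Each is given 5′ to 3′ on the strand of the gene with the element in capitals, and Derl3 has it on the opposite strand:
Hspa5, chr2:34771990-34772078, plus strand, 65 to 47 bases before the start: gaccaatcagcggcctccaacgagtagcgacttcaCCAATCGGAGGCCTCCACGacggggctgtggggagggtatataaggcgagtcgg
Hsp90b1, chr10:86705603-86705691, minus strand, 212 to 194 bases before the start: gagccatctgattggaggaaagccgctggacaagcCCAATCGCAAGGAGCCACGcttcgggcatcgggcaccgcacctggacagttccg
Pdia6, chr12:17266456-17266544, plus strand, 98 to 80 bases before the start: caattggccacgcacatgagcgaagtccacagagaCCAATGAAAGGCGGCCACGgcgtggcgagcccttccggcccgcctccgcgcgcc
Derl3, chr10:75893207-75893295, plus strand, 156 to 138 bases before the start: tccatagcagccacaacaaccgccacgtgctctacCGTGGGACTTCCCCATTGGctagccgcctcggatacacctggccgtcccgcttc
Hspa5, the chaperone BiP, rose by 0.87 (adjusted p = 0.0482) from 157 ± 39.04 (SD, n = 5) to 297 ± 117 (SD, n = 5), Hsp90b1, the chaperone GRP94, by 0.78 (adjusted p = 0.02598) and the disulfide isomerase Pdia6 by 0.602 (adjusted p = 0.0249). In all 3 LKO mouse 1 was below FF mouse 1. Of the other motifs searched in the same way, the STAT site TTCNNNGAA was found in 7.07% of the tested promoters, in 1 of 11 male-biased genes that rose and 2 of 10 not called, and in 1 of 6 female-biased genes that fell and 0 of 6 not called. The sterol regulatory element TCACNCCAC was found in 1.38% of the tested promoters, in 0 of 2 cholesterol genes that rose and 1 of 20 not called. In the lipogenesis list 0 of 5 called genes and 1 of 17 others held it. The chaperones and Pdia6 were named for their windows, after their values were seen. The call of Hspa5 was lost in 14 of the 18 fits without 1 mouse (adjusted p up to 0.138), and those of Hsp90b1 and Pdia6 without FF mice 2, 3 or 5 or LKO mice 3 or 5 (up to 0.0742 and 0.0781).

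Some genes of cholesterol synthesis rose in LKO mice. Of 34 tested genes of sterol synthesis and uptake 5 rose and 0 fell, and 27 fold changes were positive (median 0.369). Stard4, a sterol transfer protein chosen for mention after its values were seen, rose by 0.61 (adjusted p = 0.0343), but not without FF mice 2, 3 or 4 or LKO mice 2 or 3 (up to 0.104). Insig1, of the lipogenesis list and an ER protein that holds back sterol regulators, was at 105, 93.3, 62.1, 64.9 and 92.3 in FF mice and at 187, 198, 259, 124 and 125 in LKO mice (log2 fold change 1.06, adjusted p = 0.0202), without overlap and with LKO mouse 3 the highest. Its relative Insig2 went the other way, from 55.8, 61.2, 67.7, 85.02 and 73.4 to 39.8, 26.6, 55.003, 24.9 and 42.9 (log2 fold change -0.89, adjusted p = 0.0458). Mvd (1.18, adjusted p = 0.0456) and Msmo1 (1.01, adjusted p = 0.0413), enzymes of the pathway, rose with overlap of the groups. The count of 5 was 1 without FF mouse 3, LKO mouse 2 or LKO mouse 3, 2 without FF mouse 2 or 4, and 3 without FF CD mouse 1, LKO CD mouse 4, FF HFD mouse 5 or LKO HFD mouse 5, but 8 without LKO CD mouse 3. The largest adjusted p without 1 mouse was 0.0661 for Insig1, 0.117 for Insig2, 0.131 for Mvd and 0.118 for Msmo1.

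Several plasma proteins made by hepatocytes rose. Of 51 tested genes of complement and coagulation 6 rose and 0 fell, namely the genes of the 3 fibrinogen chains and C6, C8a and C8b, whose products form the membrane attack complex and which are also male-biased. C8b was at 38.3, 16.95, 19.1, 39.6 and 33.1 in FF mice and at 89.4, 118, 105, 106 and 116 in LKO mice (log2 fold change 1.901, SE 0.19, adjusted p = 1.23e-05). The lowest LKO mouse was far above the highest FF mouse. C6 was at 36.4, 16.95, 31.8, 37.6 and 26.3 and 71.3, 72.7, 93.5, 98.2 and 89.7 (log2 fold change 1.52, adjusted p = 0.000201) and C8a at 101, 65.5, 88.6, 105 and 68.9 and 139.5, 229, 207, 201 and 190.5 in FF and LKO mice (log2 fold change 1.17, adjusted p = 0.000197). Neither gene overlapped between the groups. Fgb, the beta chain of fibrinogen, was at 1402, 1228, 1187, 1577 and 1310.1 in FF mice and at 1654, 2453, 2863, 2761 and 3068 in LKO mice (log2 fold change 0.91, SE 0.14, adjusted p = 0.000957), with LKO mouse 1 the lowest of its group. The count of 6 held in all fits without 1 mouse, where it was 6 to 8.

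Of 27 tested acute phase proteins 4 rose and 1 fell, and 21 fold changes were positive. Lrg1, a secreted leucine-rich glycoprotein, was at 107, 77.98, 60.7, 67.9 and 72.3 in FF mice and at 82.1, 178, 216, 132 and 251 in LKO mice (log2 fold change 1.07, adjusted p = 0.0342), with LKO mouse 1 inside the range of the FF mice. Steap4 (1.05, adjusted p = 0.0402), a metalloreductase, and Serpina10 (0.77, adjusted p = 0.0393), an inhibitor of coagulation factor X, overlapped as well. Orm3, an orosomucoid, fell from 1.61, 2.89, 6.101, 2.99 and 3.95 to 0.483, 1.19, 0.0395, 0.2104 and 2.13 (log2 fold change -1.36, adjusted p = 0.00747). The count of 4 was 0 without any of FF mice 2, 3 and 5 or LKO mouse 3, 1 without FF mouse 4 or LKO mice 2 or 5, 2 without LKO CD mouse 4, and 0 in a fit of only the HFD mice. Serpina3k, an antichymotrypsin of the liver and 1 of the most abundant transcripts, rose from 2394, 1289, 1444, 3199 and 2636 to 4175, 3716, 3974, 3293 and 4219.6 (log2 fold change 0.902, adjusted p = 0.0203), barely without overlap and not without FF mouse 2 or 3 or LKO mouse 3 (up to 0.0581). Serpina4-ps1, a serpin pseudogene, rose from 3.4001, 1.702, 1.296, 3.36 and 9.52 to 21.4, 14.3, 46.1, 31.8 and 58.6 (log2 fold change 2.92, adjusted p = 0.00226). Enho, the gene of the secreted peptide adropin, rose from 1.22, 0.185, 0.275, 0.376 and 0.477 to 1.905, 5.097, 5.697, 2.98 and 2.75 (log2 fold change 1.605, adjusted p = 0.00408), with FF mouse 1 above the other FF mice.

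Some genes of lipid storage fell in LKO mice. Fat in hepatocytes is kept in droplets coated with perilipins and CIDE proteins, which are known to rise in fatty liver. Of 28 tested droplet proteins, lipases and triglyceride enzymes 3 fell and 0 rose, and 25 fold changes were negative (median -0.344). Cidec, which fuses droplets, was at 10.1, 35.8, 47.5, 22.2 and 25.1 in FF mice and at 10.8, 2.64, 5.43, 2.18 and 6.12 in LKO mice (log2 fold change -2.18, SE 0.405, adjusted p = 0.00503). FF mouse 1 and LKO mouse 1 had nearly the same level and were the only overlap. Mogat1, a monoacylglycerol acyltransferase, was at 4.31, 5.89, 5.34, 5.497 and 5.06 in FF mice and at 3.305, 0.7005, 0.712, 0.295 and 1.12 in LKO mice (log2 fold change -1.61, SE 0.22, adjusted p = 0.000472). LKO mouse 1 was again nearest to the FF mice. Plin4, a perilipin, was at 2.65, 11.3, 11.8, 10.02 and 6.06 in FF mice and at 5.51, 1.73, 1.58, 1.58 and 2.34 in LKO mice (log2 fold change -1.37, adjusted p = 0.0235), where LKO mouse 1 lay above FF mouse 1. Plin4 lost its call without any of FF mice 2 to 4 or LKO mice 2 to 4 (up to 0.0731), and the count of 3 was 5 without LKO mouse 1.

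Of 18 tested genes of fatty acid uptake and activation 2 fell and 1 rose. Cd36, a fatty acid translocase and also a female-biased gene, was at 55.4, 89.1, 71.3, 63.6 and 56.6 in FF mice and at 37.1, 28.4, 11.6, 6.98 and 17.1 in LKO mice (log2 fold change -1.88, SE 0.35, adjusted p = 0.00504). Its LKO mice 1 and 2 were nearest to the FF mice. The mean was 4.12 in FF CD mice and 13.3 in LKO CD mice. Fabp4, the fatty acid binding protein of adipocytes and macrophages, had a log2 fold change of -0.96 (adjusted p = 0.0494), with overlap and with the call lost in 16 of 18 fits without 1 mouse (up to 0.127). Acsl4, which activates arachidonic acid, rose from 7.62, 10.7, 10.9, 11.96 and 11.9 to 14.5, 17.6, 19.3, 17.6 and 14.1 (log2 fold change 0.61, adjusted p = 0.00811), and its fold was under 1.5 without FF mouse 1 or LKO mouse 3. Of 22 tested apolipoproteins and lipoprotein proteins 2 fell and 1 rose. Apoa4, a lipoprotein component known to rise with hepatic triglyceride, was at 1456, 1882, 2369, 1691 and 1552 in FF mice and at 634, 454, 672, 245 and 1011 in LKO mice (log2 fold change -1.69, SE 0.32, adjusted p = 0.00616), without overlap. Apoc2, the activator of lipoprotein lipase, fell from 277, 328, 307, 241 and 241 to 142, 146, 163, 135 and 189 (log2 fold change -0.84, adjusted p = 0.00503), also without overlap. Apoa1, the main protein of high-density lipoprotein, rose by 0.64 (adjusted p = 0.0169), from 3105 ± 323 (SD, n = 5) to 4909.9 ± 972 (SD, n = 5), but not without FF mouse 2 (0.0520) or LKO mouse 2, where its fold was under 1.5.

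A few genes of fatty acid breakdown, many of which are targets of the fatty acid receptor PPAR-alpha, fell. Of 39 tested genes of oxidation 3 fell and 0 rose, with 31 negative values, and of 27 PPAR-alpha and fasting genes 2 fell and 0 rose, with 26 negative values (medians -0.180 and -0.332). Pex11a, a peroxisomal membrane protein, was at 82.4, 126, 97.97, 105 and 107 in FF mice and at 69.2, 54.5, 60.9, 51.2 and 47.7 in LKO mice (log2 fold change -0.86, SE 0.17, adjusted p = 0.00747). The groups did not overlap, and FF CD mice had a mean of 28.4. Aldh3a2 (-0.77, adjusted p = 0.0157), a fatty aldehyde dehydrogenase, fell too. Aldh3a2 missed the test without FF mouse 2 (0.0520). All 10 tested acyl-CoA thioesterases, which split acyl-CoA into fatty acid and coenzyme A, had negative fold changes, and 3 fell. Acot11 was at 3.34, 2.498, 2.28, 3.32 and 2.24 in FF mice and at 1.73, 0.884, 0.907, 0.923 and 0.927 in LKO mice (log2 fold change -0.85, SE 0.15, adjusted p = 0.00367), without overlap. Acot2 (-0.96, adjusted p = 0.0392) and Acot4 (-0.602, adjusted p = 0.04997) lost their calls without any of FF mice 2 to 5 or LKO mice 2, 4 and 5 (up to 0.109 and 0.129), Acot4 also without either mouse 1 or any of 5 CD mice. That left 1 of the 3. The count of 2 PPAR-alpha and fasting genes was 1 without any of FF mice 2 to 5 or LKO mice 2, 4 and 5, and 4 without FF CD mouse 3.

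Some genes of glucose handling fell. Of 32 tested genes of gluconeogenesis and glycolysis 5 fell and 0 rose, and 27 fold changes were negative (median -0.245). G6pc, glucose-6-phosphatase, the last step of glucose release, was at 141, 133, 149, 201 and 207 in FF mice and at 63.2, 45.9, 48.9, 49.1 and 37.1 in LKO mice (log2 fold change -1.74, SE 0.15, adjusted p = 3.06e-06). The groups were far apart, and no single mouse changed the call. Gpi1, glucose-6-phosphate isomerase, fell from 83.995, 88.8, 71.9, 88.3 and 96.9 to 51.4, 49.5, 54.7, 63.1 and 55.9 (log2 fold change -0.64, adjusted p = 0.00497), without overlap. Khk, which phosphorylates fructose, was at 239, 205, 116, 186 and 239 in FF mice and at 152, 115, 111, 110.2 and 115 in LKO mice (log2 fold change -0.67, adjusted p = 0.0308), with FF mouse 3 among the LKO mice. The count of 5 was 3 without any of FF mice 1, 2, 4 and 5 or LKO mice 2 to 4, and Khk itself lost its call without 8 of the mice (up to 0.0830).

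Some genes of de novo lipogenesis fell. Of 23 tested genes 4 fell and 1, Insig1, rose, with 17 negative values (median -0.336). Fasn, fatty acid synthase, was at 50.8, 65.4, 71.9, 68.8 and 66.7 in FF mice and at 55.3, 41.1, 90.6, 43.7 and 31.1 in LKO mice, with overlap, a log2 fold change of -0.39 (SE 0.31) and an adjusted p of 0.526. Acacb, the acetyl-CoA carboxylase at mitochondria, was at 15.8, 18.6, 20.5, 35.9 and 20.6 in FF mice and at 21.7, 14.7, 29.9, 18.99 and 18.7 in LKO mice (log2 fold change -0.0736, adjusted p = 0.872), so that neither lipogenic enzyme passed the test. Me1, malic enzyme, a source of NADPH, was at 151, 166, 161, 187 and 247 in FF mice and at 126, 71.01, 111, 114 and 89.9 in LKO mice (log2 fold change -0.83, adjusted p = 0.0401), and Pgd, of the pentose phosphate pathway, fell from 24.2, 25.2, 29.03, 26.3 and 34.04 to 18.99, 16.04, 15.9, 12.6 and 17.4 (log2 fold change -0.74, adjusted p = 0.0143). Neither gene overlapped between the groups. The call of Me1 was lost without any of FF mice 2 to 5 or LKO mice 2 to 5 (up to 0.103), and the count of 4 was 1 or 2 without any of the same mice and 1 with the replicate number as a block. Scd1, the stearoyl-CoA desaturase, had the largest difference of the 16 tested desaturases and elongases, none of which was called (-0.898, adjusted p = 0.0741). It was called after rescaling (0.0471), after quantile normalization (0.0382) and without FF mouse 1 (0.0356) or LKO mouse 1 (0.0290).

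Some matrix genes fell in LKO mice. Of 32 tested genes of extracellular matrix and stellate cell activation 6 fell and 0 rose, with 28 negative values (median -0.360). Col3a1, a fibrillar collagen, was at 6.42, 14.7, 11.7, 8.57 and 8.07 in FF mice and at 5.43, 5.299, 2.65, 2.06 and 2.84 in LKO mice (log2 fold change -1.24, SE 0.26, adjusted p = 0.0109). The groups did not overlap, with FF mouse 1 the lowest FF mouse and LKO mice 1 and 2 the highest LKO mice. Col1a1, of the main fibrillar collagen, was at 1.77, 6.23, 4.18, 3.18 and 3.28 in FF mice and at 1.39, 1.89, 0.719, 0.499 and 0.9098 in LKO mice (log2 fold change -1.15, adjusted p = 0.0157), where FF mouse 1 lay below LKO mouse 2. Col1a2 (-0.96, adjusted p = 0.0334) and Ccn2 (-1.02, adjusted p = 0.0449), a matricellular growth factor, overlapped too. The count of 6 was 2 without any of FF mice 2, 4 and 5 or LKO mice 4 and 5, and 3 without FF mouse 3, LKO mouse 3 or LKO CD mouse 4. Without 1 mouse the adjusted p was at most 0.0386 for Col3a1, 0.0507 for Col1a1 (without FF mouse 2), 0.0941 for Col1a2 and 0.122 for Ccn2. Sulf2, a heparan sulfate endosulfatase outside this list, fell from 6.67, 8.74, 9.76, 8.88 and 7.11 to 4.299, 1.51, 0.552, 0.868 and 1.42 (log2 fold change -1.89, SE 0.24, adjusted p = 0.000197), with LKO mouse 1 above the other LKO mice and below every FF mouse.

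Markers of the cell types of the liver were read beside these results. The summed RPKM of 10 stellate cell markers was 87.7 to 132 in FF HFD and 60.1 to 119 in LKO HFD mice (exact permutation test, two-sided, p = 0.127), and 3 of the 10 fell, the 3 collagens above, while Lrat, Reln, Des, Rgs5, Pdgfrb, Dcn and Acta2 were not called. The sum of 8 sinusoidal endothelial markers was 53 to 87.5 in FF and 41.0 to 58.7 in LKO mice (p = 0.0159, exact permutation test), and 0 of the 8 were called. That of 6 erythroid markers was 301 to 600.0 in FF and 216 to 309 in LKO mice (p = 0.0159, exact permutation test), with 0 of 5 tested called. The sum of 7 pancreatic acinar markers was 2.19 to 7.08 and 3.98 to 10.9 (p = 0.0317, exact permutation test), and 5 of them, Cpa1, Pnlip, Amy2a5, Ctrb1 and Prss2, stayed under 3 reads in every HFD mouse. Adjusted over the 12 lists compared, these p-values were 0.0952 for the endothelial and erythroid sums and 0.127 for the acinar sum, so none passed, and the sums of the other 8 lists had p from 0.222 to 0.802 by the same exact permutation test. Kupffer cell markers were at 94.8 to 203 in FF and 104 to 186 in LKO mice, with 0 of 11 called. Hepatocyte markers were at 35900 to 45800 and 39200 to 46500, and 2 of 8, Apoa1 and Ahsg, rose. All Kupffer, endothelial and stellate markers had negative fold changes (medians -0.183, -0.355 and -0.266), against 42.6% of all tested genes. The medians of B cell and neutrophil markers, with 2 tested each, were positive (0.0746 and 0.221). The part of the endothelial and erythroid levels in the results was not tested.

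In other groups few members passed. Of 27 tested genes of bile acid synthesis and transport 3 rose, Cyp7b1, Slco1a1 and Cyp2c70, and of 36 organic ion and ABC transporters 2 rose and 3 fell. Of 10 tested Serpina1 and Serpina3 inhibitors 2 rose, Serpina1e and Serpina3k, and of 12 Cyp4 omega-hydroxylases 1 did, Cyp4a12b. The 2 transporters that rose were 1 without FF mouse 2 or 3 or LKO mouse 2 and 0 without LKO mouse 3, and the 3 that fell were 5 without LKO mouse 1. Serpina1e alone of the 2 inhibitors rose without FF mouse 2 or 3 or LKO mouse 3. Of 27 tested genes of insulin signalling and FoxO targets Enho rose and Igfbp1 fell. Of 45 tested phase II enzymes 3 fell and 2 rose, and of 25 genes of NRF2 antioxidant defence 4 fell and 1 rose. Of the phase II enzymes 1 fell without FF mouse 2 or 3 or LKO mouse 2 or 3, and 1 rose without FF mouse 2 or LKO mouse 3. Gstt3, a theta-class glutathione transferase, fell from 26.98, 27.4, 13.98, 26.6 and 27.6 to 17.7, 13.1, 12.3, 9.297 and 9.45 (log2 fold change -0.93, SE 0.202, adjusted p = 0.0149), with FF mouse 3 below LKO mouse 1. Gsta1, a glutathione transferase, was at 18.2, 39.2, 41.4, 7.96 and 12.3 in FF mice and at 5.403, 1.74, 5.61, 11.4 and 7.32 in LKO mice (log2 fold change -1.67, adjusted p = 0.03302), with overlap, and Gstm2 fell from 48.02, 77.4, 92.2, 41.4 and 58.6 to 34.3, 22.7, 25.2, 20.8 and 38.7 (log2 fold change -1.11, adjusted p = 0.0343), without it. Osgin1, an oxidative stress-induced growth inhibitor, rose (1.38, adjusted p = 0.0203). Gsta1 lost its call without FF mouse 2 or 3 or LKO mouse 2 or 3 (up to 0.0941), Gstm2 without those or FF mouse 5 or LKO mouse 4 (up to 0.0922), and Osgin1 without FF mouse 2 or 5 or LKO mouse 3 or 4 (up to 0.0676), which left 1 of the 4 NRF2 genes without FF mouse 2 or 3 or LKO mouse 3.

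Cdkn1a, the cell cycle inhibitor p21, was the 1 called gene of 17 tested p53 and growth arrest genes. It was at 2.15, 6.73, 6.68, 4.87 and 2.82 in FF mice and at 1.38, 0.771, 1.57, 0.892 and 1.75 in LKO mice (log2 fold change -1.24, SE 0.21, adjusted p = 0.00256), without overlap. Ly6d, a surface protein, fell from 3.52, 11.8, 20.7, 3.598 and 6.71 to 0.641, 0.873, 1.41, 1.37 and 1.95 (log2 fold change -1.95, SE 0.33, adjusted p = 0.00237), also without overlap. Acer2, an alkaline ceramidase, was 1 of 2 genes that fell among 34 of sphingolipid metabolism (-0.59, adjusted p = 0.0284), and Rdh16, a retinol dehydrogenase, the 1 called gene of 20 of retinoid metabolism (-0.95, adjusted p = 0.0185). The call of Acer2 was lost without FF mice 2, 4 or 5 or LKO mice 3 or 4 (up to 0.0794), and that of Rdh16 without FF mouse 2 or 5 or LKO mouse 3 (up to 0.0558). The pericentral genes Rhbg (-0.86, adjusted p = 0.0138), an ammonium transporter, and Slc13a3 (-0.599, adjusted p = 0.0214), a dicarboxylate transporter, fell among 20, and of 20 periportal genes Cdh1, E-cadherin, rose (0.91, adjusted p = 0.04604) and 1 fell. Cdh1 lost its call in 15 of the 18 fits without 1 mouse (up to 0.133), and Slc13a3 without FF mouse 2 or 3 or LKO mouse 1 or 4 (up to 0.0592). Of 26 tested interferon-stimulated genes 2 GTPases rose. Ifi47 was at 7.37, 4.90004, 4.56, 4.69 and 7.701 in FF mice and at 8.72, 11.03, 16.4, 10.2 and 12.1 in LKO mice (log2 fold change 0.89, SE 0.17, adjusted p = 0.00503), without overlap, and Iigp1 rose by 0.62 (adjusted p = 0.0393), a call that was lost without any of FF mice 2 to 5, LKO mice 3 to 5 and LKO CD mouse 4 (up to 0.113), in the fit of only the HFD mice (0.123) and under rescaling and centring. Without LKO mouse 1 the count was 5. That of p53 and growth arrest genes that fell was 4 without FF mouse 1 and 2 without FF mouse 2 or 3, LKO mouse 1 or 5, FF CD mouse 1 or 2 or LKO CD mouse 1, and the counts of 2 sphingolipid and 2 pericentral genes were 1 without the mice given for Acer2 and without FF mouse 2 or 3 or LKO mouse 4.

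Of the 45 lists 10 had no called gene. They hold metallothioneins and zinc transporters, desaturases and elongases, nuclear receptors, inflammation and antigen presentation, cytosolic ribosomal proteins, the respiratory chain, cell division, the circadian clock, amino acid metabolism and lysosomes. Of 77 tested subunits of the respiratory chain, which oxidises NADH in mitochondria, 75 had negative fold changes with a median of -0.127, the lowest being Uqcr10 at -0.25 (adjusted p = 0.468). Of 81 ribosomal proteins 79 were positive with a median of 0.179. The median of all genes moved from 0.0299 to -0.014 once the sums of RPKM were made equal. Mt1, the metal-binding metallothionein, spread most among LKO mice, at 29.4, 28.5, 119, 26.7 and 298 against 25.7, 44.8, 39.9, 34.2 and 19.5 in FF mice (log2 fold change 0.93, adjusted p = 0.397), where LKO mice 3 and 5 alone stood above the highest FF mouse. Vcam1, an adhesion molecule of inflamed endothelium, Per1 and Nr1d1 of the clock, Ccnd1 of the cell cycle and the lysosomal protease Ctsd had log2 fold changes of -0.57, -0.66, 0.61, 0.48 and -0.41 (adjusted p = 0.124, 0.156, 0.0576, 0.379 and 0.1299). Bhmt, which methylates homocysteine, had a log2 fold change of -1.08 with an adjusted p of 0.249. Vcam1 and Nr1d1 were called without FF mouse 1 (0.0048 and 0.0109), Per1 without LKO mouse 1 (0.0444), and Nr1d1 also after quantile normalization (0.043) and with the replicate number as a block (0.0314).

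The genotype difference was next compared between the diets. On CD 25 genes were called between LKO and FF mice (0.225%), and 8 of the 230 genes called on HFD were among them. The difference between the diets itself, the difference on HFD less that on CD, was called in 271 genes (2.44%), and in 127 of the 230, 56 of those that rose and 71 of those that fell. This test contains the difference on HFD by which the 230 were called. The larger share among them therefore follows in part from that choice. The comparisons on HFD and on CD share no mice. Of the 230 genes 174 had the opposite sign on CD, and 24.3% the same sign, against 43.1% of all tested genes. Genes that rose on HFD had a median of 0.869 there and of -0.226 on CD, and genes that fell a median of -0.869 and of 0.209. Across all tested genes, which are no independent replicates, Pearson's r of the 2 differences was -0.355. The male-biased list had a median of 1.25 on HFD and of -0.937 on CD, and the female-biased list -0.855 and 0.658. The lists of ER chaperones (0.536 and -0.0664), droplet proteins (-0.344 and 0.255) and matrix genes (-0.360 and 0.136) were nearer to 0 on CD, and cholesterol synthesis was positive on both diets (0.369 and 0.153).

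**Figure D4:**
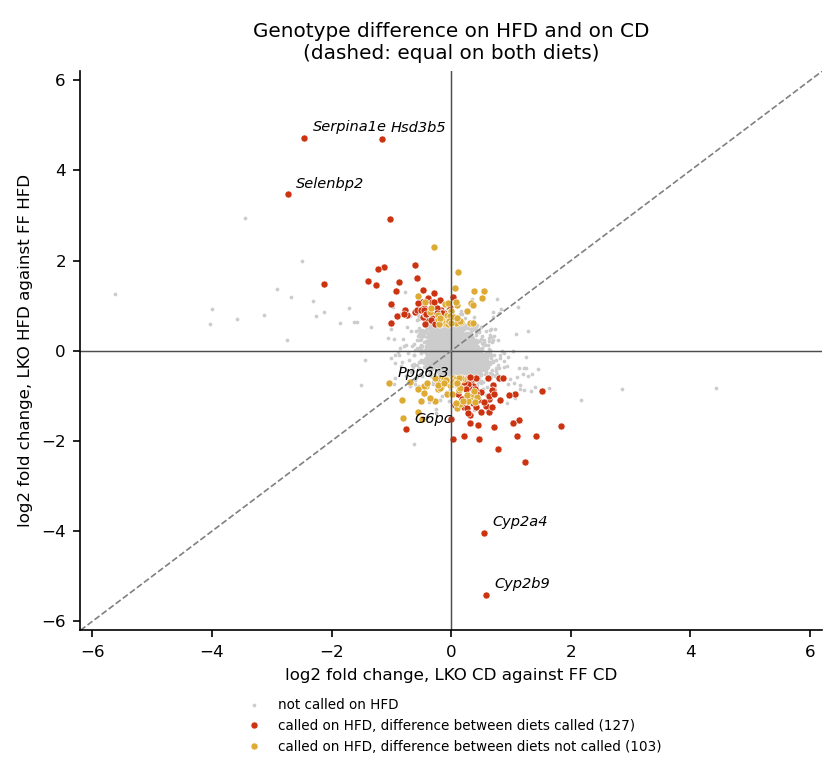
Log2 fold change between LKO and FF mice on HFD (vertical axis) against that on CD (horizontal axis), 1 point per tested gene. Of the 230 genes called on HFD, the 127 whose difference also depended on diet are red and the other 103 yellow, and grey points are not called on HFD. Hsd3b5, Serpina1e and Selenbp2 lie at the upper left and Cyp2b9 and Cyp2a4 at the lower right, while Ppp6r3 lies below 0 on both diets.

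Single genes show the same order. For Serpina1e the difference between the diets was 7.19 (adjusted p = 1.38e-05), for Selenbp2 6.21 (adjusted p = 1.38e-05) and for Hsd3b5 5.86 (adjusted p = 1.76e-05). For Cyp2b9 it was -5.99 (adjusted p = 2.74e-05) and for Hamp2 -3.69 (adjusted p = 0.00427). Ppp6r3 fell on both diets, and the difference between them did not pass the test (adjusted p = 0.106). G6pc was lower in LKO than in FF mice on either diet, with means of 232 and 138 on CD, and the difference was larger on HFD by -0.99 (adjusted p = 0.0256), but not without LKO CD mouse 4 (0.0549). Derl3 (0.148) and Slco1a1 (0.0861), by contrast, did not pass this test, the values in brackets being adjusted p. The heat map of called genes of 8 lists sets the group means on CD beside each HFD mouse.

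**Figure D5:**
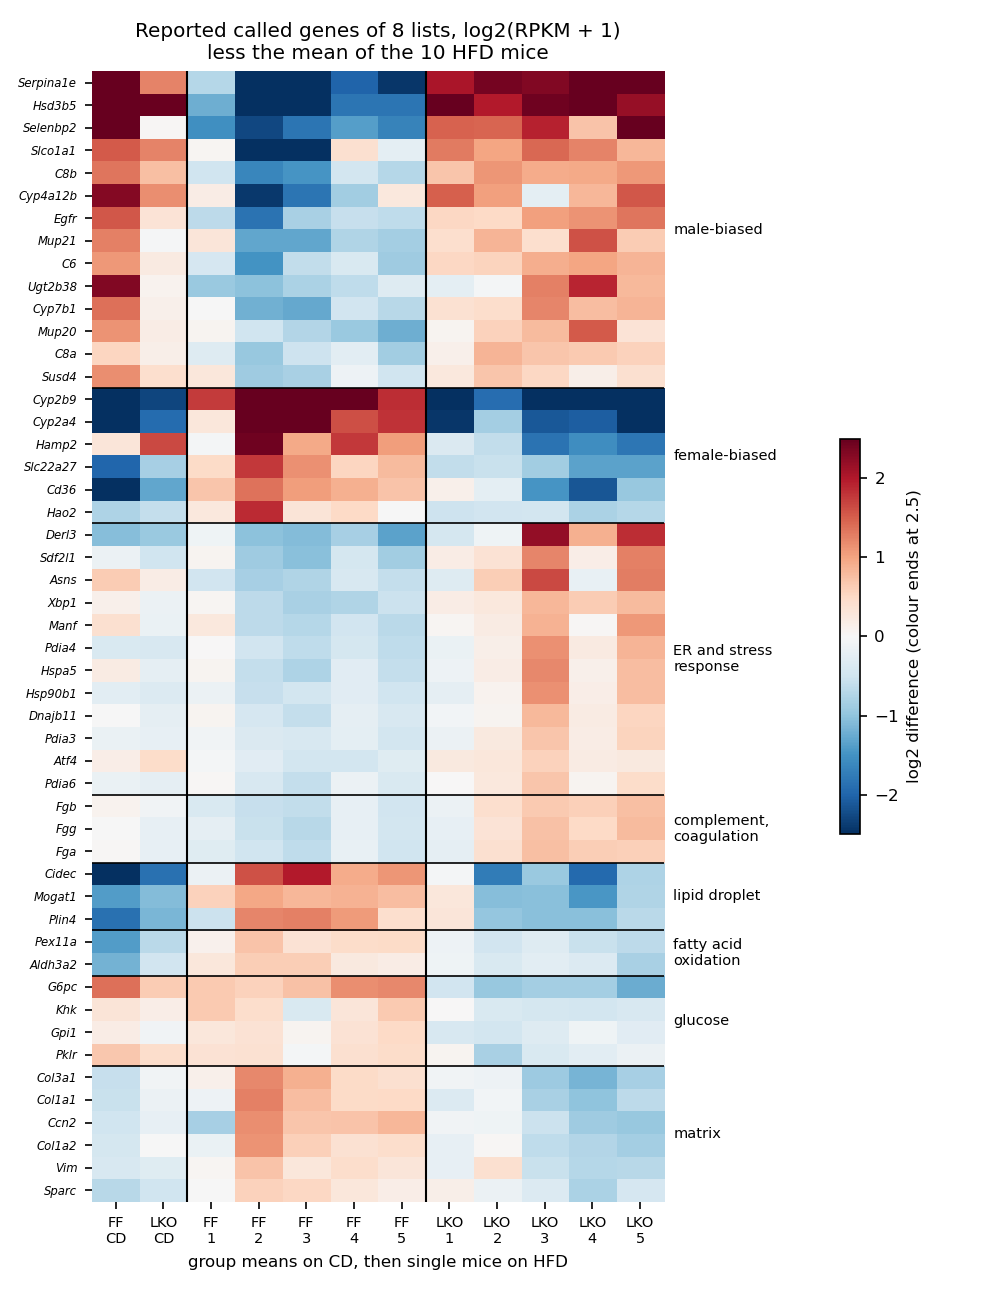
Called genes of 8 lists that are reported here (1 row per gene, C6, C8a and C8b only under the male-biased list), log2(RPKM + 1) less the mean of the 10 HFD mice, from blue (lower) to red (higher), for the group means on CD and for each FF HFD and LKO HFD mouse. Genes of the male-biased list are mostly blue in FF HFD mice and red in LKO HFD mice, the female-biased, lipid droplet and matrix genes mostly the reverse, and LKO mouse 3 or 5 is the reddest mouse in each of the 12 ER genes.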

How the data were processed

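Liver RNA of 18 male mice in 4 groups was sequenced. The submitters' processing notes name mm10, HISAT2 (2.0.4) and Partek. The gene annotation, counting rule and strandedness are not given in the sources used here, and the extract protocol names a small RNA library kit beside standard RNA-seq. The deposited values are RPKM per gene as the authors made them, normalized by gene length and mapped reads, 1 column per mouse. Depth was recovered from the steps between low values of single-exon genes and was 23.3 to 37.0 M reads per mouse, so that low genes carry counting error. RPKM + 1 was taken to log2 and fitted with limma 3.58.1 (R 4.3.3, trend on level) over all 4 groups, which share 1 estimate of the spread, for genes averaging 0.5 RPKM or more, and p-values were adjusted after Benjamini-Hochberg. The fit was tested on simulated data for LKO HFD against FF HFD in 11090 genes. There 98% of 100 genes changed by 1 and 99% of 100 changed by 2 (log2) were called. The share called when single mice deviate across many genes, as in the real data, was not tested. Single sums were compared by exact permutation tests over all splits of the mice (numpy 2.4.6). Nothing says more of the replicates than that they are separate mice. Alternatives were the pseudocount (0.1), the filter, the scaling, only HFD mice, a replicate block, no moderation, the fold and leaving out each mouse. Named genes were Ppp6r3, Fasn and Acacb, the 12 called higher and 12 called lower with the largest change without overlap, at most 4 called genes of each list that average 1 RPKM or more, and the largest change in each list without a call. Of the genes chosen by this rule, 4 are not reported here. Members and lists were chosen with earlier results of these data known.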

Additional observations from a re-analysis of the deposited data

Results flagged for a closer look

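Among the 5 FF HFD or 5 LKO HFD mice of a gene, 1 mouse stood far from the others in 17 of 188 gene and group pairs (Dixon's ratio above 0.71 for 5 values). For normally distributed values chance alone does this in about 1 in 20 pairs. The ratio was taken on RPKM without a log, and the genes share the same mice, so 17 of 188 cannot be read against that rate. The values are RPKM, followed by the nearest other mouse of the group. FF HFD mouse 1 was high in Enho (1.22, next 0.477), Mup21 (410.0, next 198), Xbp1 (70.9, next 46.5) and Osgin1 (41.7, next 18). FF HFD mouse 4 was high in Acacb (35.9, next 20.6) and Apoa1 (3670.0, next 3056), and FF HFD mouse 5 in Serpina4-ps1 (9.52, next 3.4). FF HFD mouse 2 was low in Egfr (5.70, next 12.7) and FF HFD mouse 3 in Gstt3 (14.0, next 26.6). LKO HFD mouse 1 was high in Sulf2 (4.30, next 1.51), Mogat1 (3.30, next 1.12), Plin4 (5.51, next 2.34), Acot11 (1.73, next 0.927) and Khk (152, next 115). LKO HFD mouse 2 was high in Cyp2b9 (1.48, next 0.450) and Cyp2a4 (2.92, next 0.693). LKO HFD mouse 4 was high in Mup21 (1000.0, next 596).

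The genotype difference depended on diet in 50 of the genes named in the text, by the limma test of the difference on HFD less that on CD with Benjamini-Hochberg adjustment. The values that follow are these differences on the log2(RPKM + 1) scale. Most genes named in the text were called on HFD, a difference that this test contains. The count of 50 is therefore no independent support. The difference was higher on HFD by 7.19 for Serpina1e, 6.21 for Selenbp2, 5.86 for Hsd3b5, 3.95 for Serpina4-ps1, 3.61 for Ugt2b38, 3.03 for Egfr, 2.99 for Cyp4a12b, 2.96 for Mup21 and 2.72 for Cyp7b1. Further positive values were 2.5 for C8b, 2.4 for C6, 2.24 for Mup20, 2.18 for Enho, 1.68 for Cdh1, 1.63 for Lrg1, 1.57 for Sdf2l1, 1.56 for C8a and 1.47 for Lifr. Smaller positive values were 1.41 for Cyp2c70, 1.37 for Xbp1, 1.36 for Serpina3k, 1.07 for Fgb, 1.03 for Hsd17b2 and 0.66 for Camkk2. The difference was lower on HFD, at -5.99 for Cyp2b9, -4.58 for Cyp2a4, -3.69 for Hamp2, -3.51 for Gsta1, -3.3 for Cd36, -2.98 for Slc22a27, -2.95 for Cidec, -2.43 for Cyp2a22 and -2.41 for Apoa4. Further negative values were -2.1 for Sulf2, -2.08 for 9030619P08Rik, -2.03 for Acot2, -1.99 for Plin4, -1.98 for Ly6d, -1.93 for Mogat1, -1.69 for Slc22a29, -1.67 for Rdh16 and -1.66 for Col3a1. Smaller negative values were -1.54 for Pex11a, -1.51 for Col1a1, -1.47 for Aldh3a2, -1.45 for Cdkn1a, -1.4 for Acot4, -1.35 for Gstt3, -1.11 for Apoc2 and -0.99 for G6pc. The adjusted p of the 50 genes ran from 1.38e-05 for Serpina1e and Selenbp2 to 0.0498 for Camkk2. With 1 of the 18 mice left out, 37 of the 50 held in every fit and 13 did not. The number of fits that ended the call was 16 for Camkk2, 14 for Lrg1, 13 for Col1a1, 12 for Plin4, 11 for Sdf2l1, 10 for Ly6d, 5 for Cyp4a12b and Col3a1, 3 for Serpina3k, 2 for Gstt3, Cdkn1a and Cdh1 and 1 for G6pc (adjusted p up to 0.113).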

How the results depend on the processing

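The number of called genes, 230, was 152 with no filter on low values, 145 without moderation of the variance, 466 by the adjusted p alone, 87 at a fold of 2 and 132 to 318 with 1 mouse left out. Of these the 145 and the 87 were all among the 230. Genes that rose, 100, were 59 with no filter, 60 with only the HFD mice, 233 by the adjusted p alone, 37 at a fold of 2, 55 without moderation and 50 to 137 with 1 mouse left out. Genes that fell, 130, were 233 by the adjusted p alone, 50 at a fold of 2 and 78 to 181 with 1 mouse left out. The number of genes whose genotype difference depended on diet, 271, was 169 with no filter, 411 after rescaling, 156 at a fold of 2, 167 without moderation and 156 to 392 with 1 mouse left out. Without mouse 1 of both HFD groups, an alternative chosen after seeing the data, 342 genes were called, 155 of them higher, and 431 depended on diet. Ppp6r3, at -0.827 to -0.674, was called in every setting except the fold of 2, which its values do not reach. Acacb, LKO HFD against FF HFD, was not called and ran from -0.208 to 0.107 with 1 mouse left out, turning positive when FF HFD mouse 4 (0.107) or LKO HFD mouse 2 (0.0351) was missing. Of 86 named called genes 48 held without each of the 18 mice, 29 were not called with no filter, 22 with only the HFD mice and 30 without moderation. The causes were not tested, except that a fold of 2 keeps fewer and the adjusted p alone more genes by construction. The mice share replicate numbers but r of their deviations was -0.064 to 0.17 for same-numbered pairs, so the numbers were not read as a pairing. With the replicate number as a block 223 genes were called, 211 of them among the 230, and 8 named genes lost their call. Differences in genes near 3 reads cannot be read at this depth.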

Other observations

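Of the 230 called genes 122 belonged to none of the 45 lists. Those named here were chosen after their values were seen, except for 9030619P08Rik. Krt23, a keratin, was at 3.13, 3.05, 2.88, 3.35 and 4.33 RPKM in FF HFD mice 1 to 5 and at 0.572, 0.727, 0.535, 0.357 and 0.369 in LKO HFD mice 1 to 5 (log2 fold change -1.52, SE 0.12, adjusted p = 6.96e-07). The groups were far apart, with little spread in either. Dusp1, a phosphatase of MAP kinases, was at 19.2, 16.1, 14.8, 19.4 and 18.6 in FF mice and at 6.05, 3.36, 5.701, 6.36 and 7.07 in LKO mice (log2 fold change -1.496, SE 0.18, adjusted p = 9.95e-05), without overlap. Wfdc2, a secreted protein with whey acidic domains, fell from 19.4, 24.9, 12.5, 11.8 and 11.4 to 4.18, 4.51, 6.56, 3.93 and 3.21 (log2 fold change -1.59, adjusted p = 0.00215). Lgals1, galectin 1, fell from 46.9, 73.2, 75.7, 42.5 and 52.04 to 37.1, 19.4, 13.6, 8.44 and 27.5 (log2 fold change -1.54, adjusted p = 0.0138), and Anxa2, a membrane-binding annexin, from 10.3, 25.95, 32.1, 15.4 and 20.03 to 11.4, 8.43, 4.46, 4.08 and 6.603 (log2 fold change -1.43, adjusted p = 0.004397). In Anxa2 LKO mouse 1 was above FF mouse 1, and in Wfdc2 and Lgals1 the groups did not overlap. Of genes of contractile cells and matrix outside the lists, Tpm2 (-0.84, adjusted p = 0.0002398), Myl9 (-0.602, adjusted p = 0.00497) and Postn (-0.804, adjusted p = 0.00457) fell. How many other such genes were not called was not counted. Of the 10 stellate cell markers 3 fell, all collagens, while Acta2 (-0.421, adjusted p = 0.119) and Des (-0.085, adjusted p = 0.6) were among those not called. The unnamed transcript 9030619P08Rik, among the genes with the largest decrease, fell from 13.9, 14.4, 18.2, 15.01 and 17.4 to 7.28, 5.54, 3.97, 1.24 and 6.39 (log2 fold change -1.64, adjusted p = 0.00406).

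Among genes that rose, Rnase4 and Ang, secreted ribonucleases, had the same direction. Rnase4 was at 269, 274, 199, 194 and 234 in FF mice and at 319.7, 542, 533, 494 and 402 in LKO mice (log2 fold change 0.95, adjusted p = 0.00114), and Ang at 59.3, 48.3, 39.5, 45.5 and 53.03 and 70.9, 146, 118, 115 and 104 (log2 fold change 1.13, adjusted p = 0.000413). Neither overlapped between the groups, and in both LKO mouse 1 was the lowest LKO mouse. Avpr1a, a vasopressin receptor, was at 2.06, 1.55, 1.16, 1.73 and 1.81 in FF mice and at 4.13, 5.18, 7.47, 5.47 and 3.78 in LKO mice (log2 fold change 1.202, SE 0.14, adjusted p = 9.95e-05), without overlap. Nudt7, a peroxisomal coenzyme A hydrolase, rose by 0.84 (adjusted p = 0.00776). Of the 12 genes chosen in this way, 11 kept their calls without each single mouse (adjusted p at most 0.0484, for Lgals1). The fold of Myl9 was under 1.5 without any of 6 mice, FF HFD mice 1, 4 and 5 and LKO HFD mice 1, 3 and 4. Since the 12 were picked with their values known, this share does not describe the called genes outside the lists. Of the 86 called genes named by the rule, 48 kept their calls.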
